A study of Mus musculus with 4 samples.

Results

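The transforming growth factor beta (TGF-beta) signalling core was followed in mouse microglia 1 day after a Trem2-activating antibody. It was taken as 10 genes, namely the ligand Tgfb1, the microglial tether Nrros, the receptors Tgfbr1 and Tgfbr2, the SMADs Smad2, Smad3 and Smad4, and the inhibitors Smad7, Ski and Skil. They were chosen by symbol among the 19737 genes of the deposited single-cell count matrix, and all 10 passed the filter on low counts that left 14058 genes for testing. The rule uses symbols, not measured values.

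Each of 5 groups held 4 mice, and every mouse was homozygous for TfRmu/hu, a transferrin receptor carrying human sequence to which the antibody transport vehicle (ATV) binds. On the WT;TfRmu/hu background the treatments were ATV:ISO (the group WT ATV:ISO) and ATV:4D9 (WT ATV:4D9). On the AppSAA;TfRmu/hu background they were ATV:ISO (AppSAA ATV:ISO), 4D9 (AppSAA 4D9) and ATV:4D9 (AppSAA ATV:4D9). AppSAA is a homozygous knock-in of a humanized App gene with mutations of familial Alzheimer's disease, so amyloid builds up without overexpression. 4D9 is an antibody that activates Trem2. ATV:4D9 is the same antibody with a transferrin receptor binding site, the vehicle, built into its Fc domain for transport into the brain. ATV:ISO is the vehicle with an isotype control. The isotype arm is labelled ATV-DNP02 in the files and was read as ATV:ISO. All mice received a single IV dose of 10 mg per kg and were sampled after 24 h. Cells were sorted as live CD11b+ or, in 1 of the sources, as Cd45+/Cd11b+, from brain tissue given as cortex or as cortex with hippocampus. The study's summary lists the WT line as of mixed sex and of a range of ages, and gives males of 8 months in the entry that names AppSAA. In the labels 1 WT ATV:ISO mouse (replicate 4) is recorded as female, and the age of the WT mice is uncertain.

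TGF-beta is made as a latent complex that Nrros holds at the surface of microglia until integrins release it. The ligand binds Tgfbr2, which recruits and phosphorylates Tgfbr1, and the active pair phosphorylates Smad2 and Smad3. These join Smad4 and enter the nucleus to regulate genes, while Smad7 blocks the receptor and Ski and Skil repress SMAD complexes on DNA. Smad7 and Skil are themselves raised by TGF-beta in many cells. In the brain this pathway keeps microglia in their resting identity, with genes such as P2ry12, Tmem119 and Sall1.

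RefSeq promoter windows (GRCm38.p6, 250 bases before to 50 after the start) were at hand for 6 of the 10 genes, Tgfb1, Nrros, Tgfbr1, Tgfbr2, Smad3 and Ski. Those of the ligand, its tether and both receptors are shown because the members of each pair departed from each other below. They are written 5′ to 3′ on the strand of the gene, with capitals for the SMAD-binding letters CAGAC or their reverse complement GTCTG.
Tgfb1, chr7:25686752-25687051, plus strand: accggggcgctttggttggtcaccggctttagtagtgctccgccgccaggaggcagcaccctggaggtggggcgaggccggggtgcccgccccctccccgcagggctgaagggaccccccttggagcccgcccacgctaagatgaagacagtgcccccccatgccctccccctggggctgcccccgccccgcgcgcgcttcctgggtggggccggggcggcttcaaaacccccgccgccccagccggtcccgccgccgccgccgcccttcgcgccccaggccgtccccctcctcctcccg
Nrros, chr16:32165545-32165844, minus strand: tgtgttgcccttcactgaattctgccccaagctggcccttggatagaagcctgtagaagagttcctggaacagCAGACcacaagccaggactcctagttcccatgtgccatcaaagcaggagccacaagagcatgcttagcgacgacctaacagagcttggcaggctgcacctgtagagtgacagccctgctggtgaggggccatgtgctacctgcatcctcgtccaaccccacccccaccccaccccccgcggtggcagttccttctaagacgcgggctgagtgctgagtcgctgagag
Tgfbr1, chr4:47352972-47353271, plus strand: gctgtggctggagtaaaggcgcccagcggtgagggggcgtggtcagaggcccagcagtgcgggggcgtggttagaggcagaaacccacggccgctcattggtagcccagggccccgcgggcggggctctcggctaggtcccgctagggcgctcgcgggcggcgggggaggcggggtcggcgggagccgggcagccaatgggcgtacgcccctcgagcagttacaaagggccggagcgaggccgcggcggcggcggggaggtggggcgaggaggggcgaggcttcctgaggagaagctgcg
Tgfbr2, chr9:116175314-116175613, minus strand: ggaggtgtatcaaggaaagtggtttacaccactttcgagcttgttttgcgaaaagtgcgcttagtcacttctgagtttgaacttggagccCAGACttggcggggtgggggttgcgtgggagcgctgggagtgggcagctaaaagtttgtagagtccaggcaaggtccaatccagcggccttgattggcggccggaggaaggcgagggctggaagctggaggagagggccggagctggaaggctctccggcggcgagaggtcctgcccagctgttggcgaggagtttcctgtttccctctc
The Nrros and Tgfbr2 windows each held 1 match and the Tgfb1 and Tgfbr1 windows none. Of all 32851 mouse windows of this length 49.6% held at least 1, so a match here is common. Tgfbr1 has a second annotated start, whose window held 1 match, and the Smad3 and Ski windows held none. Nothing in these data measured binding or activity at these windows. In GRCm38 the 10 genes are protein coding, and only Smad4 shared its span with another annotated gene, a processed pseudogene on the opposite strand that the count matrix does not list.

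The matrix held 74758 cells, and 2193 to 6126 cells and 17150296 to 102446549 UMIs were summed per mouse. Cells were captured in 4 pools with 1 mouse per group in each, so mice with the same replicate number share a capture and sequencing pool. Of the cells, 1089 (1.46%) carried a barcode also seen in another pool. The summed microglial markers, in CPM (UMIs of a gene after scaling the total of each mouse to a common size), lay between 29982 and 32580 in WT ATV:ISO, 22883 and 25492 in WT ATV:4D9, 22811 and 26520 in AppSAA ATV:ISO, 23679 and 24757 in AppSAA 4D9, and 21917 and 23488 in AppSAA ATV:4D9. The WT ATV:ISO mice were above all others, the other marker lists were far lower, and 3 cells held more UMIs of another list than of microglia. Among the other lists, the summed astrocyte list was 135 to 164 CPM in WT ATV:ISO and 60.1 to 74.8 in WT ATV:4D9, and the platelet list 37.6 to 47.0 CPM and 21.6 to 31.6 CPM in these groups. The endothelial list was 18.3 to 24.4 CPM in WT ATV:ISO, 9.49 to 12.9 in WT ATV:4D9, 37.5 to 52.2 in AppSAA ATV:ISO and 13.2 to 25.9 in AppSAA ATV:4D9. The monocyte list was 9.28 to 12.8 CPM in AppSAA ATV:4D9 and 3.74 to 8.73 in AppSAA ATV:ISO. Their part in the results below was not tested. Every mouse gave at least 572 UMIs of each of the 10 genes. In sums over cells, fewer cells of a type and less RNA per cell cannot be told apart.

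In WT mice given ATV:4D9, 7 of the 10 genes fell relative to the rest of the transcriptome and none rose. This comparison asks what the brain-penetrant antibody does where there is no amyloid. A gene was called when its Benjamini-Hochberg adjusted p over all genes tested was under 0.05. These were Smad3, Smad4, Tgfbr1, Smad7, Tgfb1, Ski and Skil, so the ligand, 1 receptor, 2 SMADs and all 3 inhibitors. Over all genes tested 63.3% were called, 32.5% as lower and 30.8% as higher. The median log2 fold change of the 10 genes was -0.35, against -0.05 over all genes. A fit with pools as blocks called 8, where 74.6% of all genes were called. In each of the 7, every treated mouse lay below every control in CPM, as did 32.8% of all genes.

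Smad4, the partner that both receptor-activated SMADs need, measured 55.3, 67.2, 64.1 and 58.6 CPM in WT ATV:ISO replicates 1 to 4 and 34.1, 44.1, 40.0 and 37.2 CPM in WT ATV:4D9. Every treated mouse lay below every control. The log2 fold change was -0.54 ± 0.085 (SE, adjusted p = 1.4e-05, edgeR quasi-likelihood test). Smad3, which with Smad2 carries the receptor signal, measured 35.8, 32.6, 40.3 and 40.0 CPM against 19.4, 22.6, 26.3 and 25.3 CPM. Again the groups did not overlap, and the log2 fold change was -0.55 ± 0.117 (adjusted p = 0.00037). Smad2, the sister of Smad3, measured 46.0, 52.8, 48.5 and 52.1 CPM in controls and 46.7, 55.4, 49.6 and 46.1 CPM after ATV:4D9. Its log2 fold change of 0.10 had a 95% interval from -0.07 to 0.27 (adjusted p = 0.29).

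Tgfbr1, the signalling kinase of the receptor, measured 823, 927, 1112 and 1090.2 CPM in WT ATV:ISO and 486, 697, 777 and 745 CPM in WT ATV:4D9. The groups did not overlap, and replicate 1 was lowest in both. The change was -0.43 ± 0.112 (adjusted p = 0.0021). Tgfbr2, the ligand-binding receptor, measured 241, 250.2, 304 and 301 CPM against 182, 235, 241 and 244 CPM. Treated replicate 4 was above control replicate 1, although each treated mouse was below the control of its own pool. The log2 fold change of -0.17 did not pass the test (adjusted p = 0.14). With the pool as a block it did (-0.17, adjusted p = 0.00085), while its adjusted p over all alternatives ran from 0.00085 to 0.46.

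Tgfb1, the ligand, measured 483, 441, 419 and 400.4 CPM in WT ATV:ISO and 343, 333, 304 and 287 CPM in WT ATV:4D9, without overlap. It fell by 0.35 on the log2 scale (SE 0.115, adjusted p = 0.012), and without WT ATV:ISO replicate 1, the highest mouse, the change was -0.26 (adjusted p = 0.061; over all alternatives 2.1e-08 to 0.061). Nrros, which tethers the latent ligand, was not called, with 139.5, 135, 113 and 126 CPM against 135, 137, 116 and 107 CPM. The log2 fold change of Nrros was 0.06, with an interval from -0.24 to 0.36 (adjusted p = 0.74).

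The inhibitors fell together. Smad7 measured 324, 362, 446 and 422 CPM in WT ATV:ISO and 220.1, 271, 284 and 300.4 CPM in WT ATV:4D9, a log2 fold change of -0.41 ± 0.111 (adjusted p = 0.0028). Skil went from 266 to 319 CPM in controls to 187 to 237 CPM (-0.29 ± 0.078, adjusted p = 0.0031), and Ski from 192 to 257 CPM to 130.2 to 183 CPM (-0.34 ± 0.119, adjusted p = 0.016). None of the 3 overlapped between groups. The Ski call was the least stable, with adjusted p = 0.068 without WT ATV:ISO replicate 4, 0.061 without WT ATV:4D9 replicate 1 and 0.051 without WT ATV:4D9 replicate 2 (over all alternatives 1.7e-06 to 0.068). Without the filter on low counts Tgfb1 (0.054) and Ski (0.066) both lost the call.

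**Figure D1:**
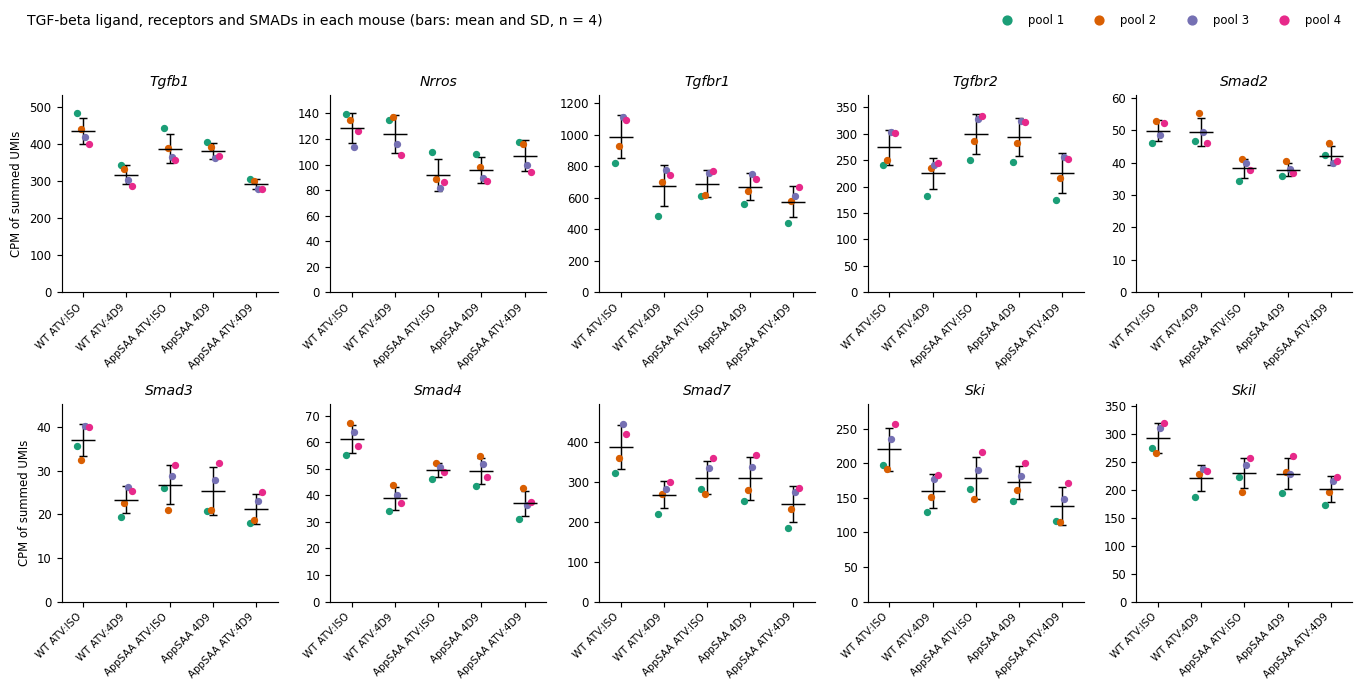
CPM of each gene (y axis, from 0) in each mouse, by group (x axis), with points coloured by pool and bars for the mean and SD of 4 mice. Tgfb1, Tgfbr1, Smad3, Smad4, Smad7, Ski and Skil sit lower in all WT ATV:4D9 mice than in all WT ATV:ISO mice, and pool 1 is low for both receptors in every group.

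These changes were relative to other genes, and on the scale of UMIs per cell the same genes moved the other way. Microglia given ATV:4D9 held more UMIs in all, with a median per cell of 6859 to 8174 in WT ATV:ISO mice and 13479 to 17290 in WT ATV:4D9 mice. Over the genes tested, mean UMIs per cell were higher by a median of 0.79 on the log2 scale (1.73-fold). Each of the 7 genes called lower had more UMIs per cell after ATV:4D9, by less than that median. Tgfb1 went from 3.74 ± 0.060 to 5.28 ± 0.215 UMIs per cell (SD, n = 4), a log2 ratio of 0.50. Smad4 went from 0.528 ± 0.064 to 0.650 ± 0.076, a log2 ratio of 0.30, and Smad3 from 0.321 ± 0.054 to 0.396 ± 0.085, also 0.30. Tgfbr1 went from 8.57 ± 1.83 to 11.4 ± 2.97 UMIs per cell, a log2 ratio of 0.42. The same ratio was 0.43 for Smad7, 0.50 for Ski and 0.56 for Skil. Smad2 (0.94) and Nrros (0.90) were above the median of all genes and Tgfbr2 (0.68) below it. Whether the larger UMI totals reflect more RNA per cell or deeper capture was not tested. A fall here means a smaller share of the UMIs, and whether a cell held more or fewer transcripts of the gene is not known. In plain CPM, without the TMM scaling of the fit, the median gene moved by -0.17 in this comparison, against -0.05 in the fit. Between the AppSAA and WT ATV:ISO groups it moved by -0.24, against -0.06 in the fit, so ratios of the CPM values printed here tend to lie below the fitted changes.

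**Figure D2:**
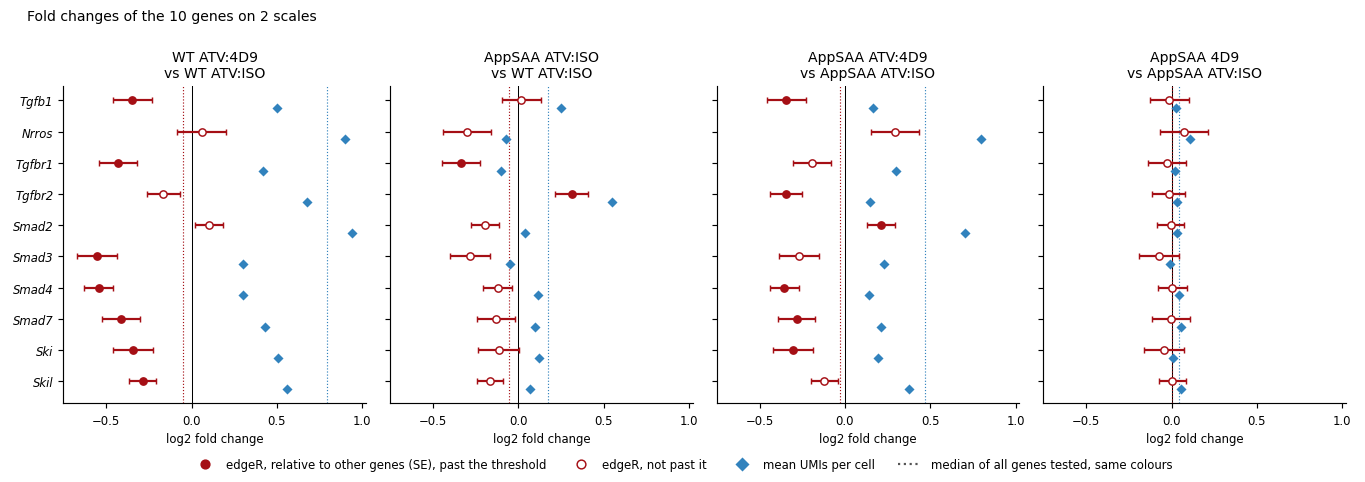
Log2 fold change (x axis) of each gene (y axis) in 4 comparisons. Circles are edgeR estimates relative to other genes with SE, filled where past the threshold, diamonds are log2 ratios of mean UMIs per cell, and dotted lines are the medians of all genes on each scale. In WT ATV:4D9 against WT ATV:ISO all diamonds lie right of 0, and the 7 filled circles lie left of it.

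Between genotypes, under the isotype control, the 2 receptors moved in opposite directions. Tgfbr1 was lower and Tgfbr2 higher in AppSAA ATV:ISO than in WT ATV:ISO, and these were the 2 genes called of 10, where 28.2% of all genes were called (14.4% higher, 13.7% lower). The share of the 10 genes called was thus not above that of all genes. The median log2 fold change of the 10 genes was -0.15, against -0.06 over all genes. Tgfbr1 measured 614.0, 614.3, 755 and 769 CPM in AppSAA ATV:ISO, all below the 823 to 1112 CPM of WT ATV:ISO. Its log2 fold change was -0.34 ± 0.112 (adjusted p = 0.029). Tgfbr2 measured 251, 286, 328 and 333 CPM, above the WT mouse of the same pool in 4 of 4 pools but overlapping with it as groups. Its log2 fold change was 0.31 ± 0.096 (adjusted p = 0.019), and in UMIs per cell it went from 2.38 ± 0.47 to 3.47 ± 0.69. On that scale Tgfbr1 was 8.57 ± 1.83 and 7.98 ± 1.54, so the direction of both receptors was the same on both scales. The question here is what the knock-in alone changes.

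Either receptor's call could be lost by leaving out a mouse. That of Tgfbr1 was lost without WT ATV:ISO replicate 3 (adjusted p = 0.091) or 4 (0.085), or without AppSAA ATV:ISO replicate 1 (0.081) or 2 (0.084), and that of Tgfbr2 without WT ATV:ISO replicate 2 (0.056) or AppSAA ATV:ISO replicate 4 (0.057). Tgfbr1 also lost it without the filter on low counts (0.082) and without cells over 25000 UMIs, which may be doublets (0.0903), and no alternative gave a higher p than 0.0906 for it or 0.057 for Tgfbr2. With the pool as a block, 9 of the 10 genes were called, where 51.0% of all genes were. Tgfbr2 was higher and the other 8 lower, by -0.31 for Nrros, -0.29 for Smad3, -0.20 for Smad2, -0.17 for Skil, -0.13 for Smad7 and -0.12 each for Smad4 and Ski, beside -0.33 for Tgfbr1. Tgfb1 was the exception, at 0.02 in both fits. In UMIs per cell Tgfbr1, Nrros and Smad3 were lower in AppSAA ATV:ISO, by 0.05 to 0.10 on the log2 scale, and the other genes higher, beside a median of 0.18 over all genes. Nrros measured 110.0, 88.3, 82.0 and 86.5 CPM in AppSAA ATV:ISO against 139.5, 135, 113 and 126 CPM, without overlap and lower in 4 of 4 pools, and was not called without the block (adjusted p = 0.12). Without the block, leaving out a mouse also brought calls, all lower in AppSAA, for Nrros without AppSAA ATV:ISO replicate 1 (adjusted p = 0.040), Smad2 without replicate 2 (0.036) and Smad3 without replicate 4 (0.047). In CPM 30.6% of all genes lay wholly below the WT group.

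In AppSAA mice, ATV:4D9 was compared with ATV:ISO and with 4D9 lacking the vehicle. Both comparisons share the ATV:4D9 mice, so they are not independent. Against ATV:ISO, Tgfb1, Tgfbr2, Smad4, Smad7 and Ski fell and Smad2 rose, 6 genes called where 55.1% of all genes were (27.1% lower, 27.9% higher). Against 4D9, Tgfb1, Tgfbr2, Smad4 and Smad7 fell and Smad2 rose, 5 genes called where 54.3% of all genes were (26.7% lower, 27.6% higher). With the pool as a block all 10 genes were called in both, where 70.7% and 69.9% of all genes were; Nrros was then higher, as was Smad2, and the other 8 lower. Other settings added calls as well. Against ATV:ISO, DESeq2 called Smad3 lower too (-0.27, adjusted p = 0.046). Smad3 was also called there without AppSAA ATV:ISO replicate 2 (0.017) or AppSAA ATV:4D9 replicate 4 (0.039), and Nrros, higher, without AppSAA ATV:ISO replicate 1 (0.021) or AppSAA ATV:4D9 replicate 4 (0.029). Against 4D9, Ski was called lower without AppSAA ATV:4D9 replicate 4 (adjusted p = 0.030).

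Tgfb1 measured 442, 388, 364 and 356 CPM with ATV:ISO, 405, 392, 361 and 367 CPM with 4D9, and 305, 299, 279 and 280.0 CPM with ATV:4D9. All ATV:4D9 mice lay below all mice of both other AppSAA groups, as they did for 24.9% of all genes against ATV:ISO and 23.8% against 4D9. The log2 fold change was -0.34 ± 0.115 against ATV:ISO (adjusted p = 0.015) and -0.33 ± 0.115 against 4D9 (adjusted p = 0.020). Without AppSAA ATV:ISO replicate 1 the first was -0.26 (adjusted p = 0.072), and the second lost its call without any 1 of 4 mice, namely AppSAA 4D9 replicate 1 (0.074) or 2 (0.0503) and AppSAA ATV:4D9 replicate 3 (0.056) or 4 (0.067).

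Smad4 measured 46.3, 52.3, 50.9 and 48.7 CPM with ATV:ISO, 43.6, 54.7, 52.1 and 46.9 CPM with 4D9, and 31.2, 42.7, 36.5 and 37.6 CPM with ATV:4D9. The ATV:4D9 mice lay below both other groups, with a log2 fold change of -0.36 ± 0.085 against each (adjusted p = 0.0014 in both). No left-out mouse ended either call. Tgfbr2, called higher in AppSAA than in WT under ATV:ISO, measured 251, 286, 328 and 333 CPM with ATV:ISO and 175, 216, 257 and 251 CPM with ATV:4D9. Although the groups overlapped, each ATV:4D9 mouse was lower than its pool mate, and the log2 fold change was -0.35 ± 0.095 (adjusted p = 0.0045). Against 4D9 it was -0.33 ± 0.096 (adjusted p = 0.0066). These calls too held without each mouse in turn. The endothelial list moved with Tgfbr2 between these groups (37.5 to 52.2 CPM with ATV:ISO, 13.2 to 25.9 with ATV:4D9), and its part in the change was not tested.

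Smad2 measured 34.5, 41.1, 40.0 and 37.8 CPM with ATV:ISO and 42.3, 46.2, 39.8 and 40.5 CPM with ATV:4D9, higher in 3 of 4 pools. It was the only one of the 10 genes called higher, by 0.21 ± 0.081 (adjusted p = 0.031), and by 0.22 ± 0.081 against 4D9 (adjusted p = 0.028). Leaving out 1 mouse ended the call against ATV:ISO in 5 of 8 cases (AppSAA ATV:ISO replicates 1, 3 and 4 and AppSAA ATV:4D9 replicates 1 and 2, adjusted p = 0.062 to 0.11) and against 4D9 in 4 of 8 (AppSAA 4D9 replicates 3 and 4 and AppSAA ATV:4D9 replicates 1 and 2, 0.074 to 0.097). Smad7 changed by -0.28 ± 0.110 in both comparisons (adjusted p = 0.035 and 0.037), and Ski by -0.31 ± 0.119 against ATV:ISO (adjusted p = 0.036). Smad7 and Ski against ATV:ISO, and Smad7 against 4D9, each lost the call without replicate 3 or 4 of the comparison group or without AppSAA ATV:4D9 replicate 1 or 2 (adjusted p = 0.067 to 0.15). Without cells over 25000 UMIs Smad2 against ATV:ISO (0.065) and Smad7 against ATV:ISO (0.088) and 4D9 (0.096) also lost theirs, as did Smad7 (0.057 and 0.062) and Ski (0.058) without the filter on low counts.

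UMIs per cell were again higher in AppSAA mice given ATV:4D9, by a median of 0.47 on the log2 scale over all genes (1.39-fold) against ATV:ISO. Tgfb1 went from 4.44 ± 0.11 to 4.98 ± 0.40 UMIs per cell, Tgfbr2 from 3.47 ± 0.69 to 3.85 ± 0.72 and Smad4 from 0.571 ± 0.062 to 0.630 ± 0.050. Nrros went from 1.05 ± 0.069 to 1.82 ± 0.199 and Smad2 from 0.442 ± 0.057 to 0.720 ± 0.034 UMIs per cell, both without overlap between groups, as were 50.5% of all genes.

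Between 4D9 without the vehicle and ATV:ISO no difference was detected in the 10 genes. The log2 fold changes ran from -0.07 (Smad3) to 0.07 (Nrros), and 0 of the 10 genes were called by edgeR, DESeq2 or limma voom, or had an unadjusted p under 0.05 in any of these. Across all genes edgeR called 0.0% (79 genes had an unadjusted p under 0.05), DESeq2 1 gene and limma voom 0. The 95% intervals bound the changes to between -0.32 and 0.17 for Smad3, -0.22 and 0.37 for Nrros, -0.26 and 0.20 for Tgfbr1 and -0.22 and 0.18 for Tgfbr2.

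Genotypes were also compared under ATV:4D9. Between AppSAA ATV:4D9 and WT ATV:4D9, 0 of the 10 genes were called by edgeR, DESeq2 or limma voom or had an unadjusted p under 0.05, where 11.8% of all genes were called. The log2 fold changes ran from -0.10 (Tgfbr1) to 0.13 (Tgfbr2), and with the block, where 31.4% of all genes were called, so was Tgfbr2 (0.13, adjusted p = 0.017; over all alternatives 0.017 to 0.81). No difference in the ATV:4D9 effect between genotypes was called for the 10 genes by the same 3 tools, again with 0 at an unadjusted p under 0.05, where 9.14% of all genes were called. With the block 5 interactions were called, where 30.5% of all genes were. The AppSAA effect minus the WT effect was 0.28 for Smad3, 0.24 for Tgfbr1, 0.24 for Nrros and 0.19 for Smad4, and -0.18 for Tgfbr2. This contrast shares its mice with the comparisons above.

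Ratios of UMIs within a mouse, free of the scaling, put partners side by side for 3 pairs. They were picked after the values above were seen, and 18 exact 2-sided permutation tests of 4 against 4 mice were made. Mice of a pool were not paired in them, so differences between pools stay in the spread. The smallest p these tests allow is 0.0286. After Benjamini-Hochberg adjustment over the 18 the smallest value found was 0.0643, so none passed. The Tgfbr1/Tgfbr2 ratio was 3.41, 3.70, 3.66 and 3.63 in WT ATV:ISO and 2.45, 2.15, 2.30 and 2.31 in AppSAA ATV:ISO, 0.640-fold and lower in 4 of 4 pools. It was 2.67, 2.97, 3.23 and 3.05 in WT ATV:4D9, between those 2 groups and overlapping neither. AppSAA 4D9 mice lay at 2.24 to 2.32 and AppSAA ATV:4D9 mice at 2.38 to 2.68, so with ATV:4D9 the ratio was lower in WT mice (0.826-fold) and higher in AppSAA mice. There it was 1.12-fold against 4D9 (p = 0.0286 by exact permutation) and 1.11-fold against ATV:ISO (p = 0.0571), each in 4 of 4 pools, and the difference between genotypes was not tested. Smad2/Smad3 lay between 1.20 and 1.62 in WT ATV:ISO and between 1.82 and 2.45 in WT ATV:4D9, 1.58-fold. In AppSAA ATV:4D9 it was 1.39-fold against ATV:ISO (p = 0.0857 by exact permutation) and 1.32-fold against 4D9 (p = 0.171), higher in 4 of 4 pools. Nrros/Tgfb1 lay between 0.271 and 0.315 in WT ATV:ISO and 0.373 and 0.413 in WT ATV:4D9 (1.32-fold), and between 0.225 and 0.249 in AppSAA ATV:ISO and 0.336 and 0.389 in AppSAA ATV:4D9 (1.55-fold, and 1.46-fold against 4D9). Between the ATV:ISO groups it was lower in AppSAA, with a log2 difference of -0.32. Each fold or difference given without its own p had p = 0.0286 by exact permutation and the same direction in 4 of 4 pools.

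**Figure D3:**
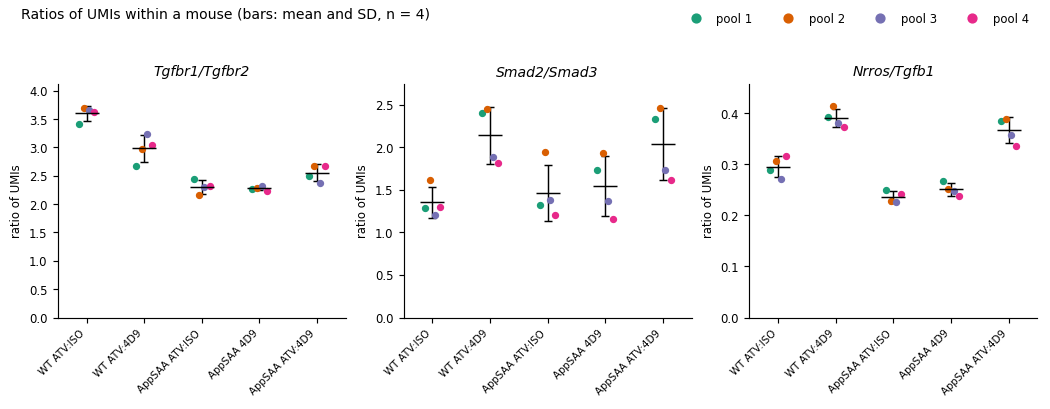
Ratio of UMIs of 2 genes (y axis, from 0) in each mouse by group (x axis), with pool colours and bars for the mean and SD of 4 mice. Tgfbr1/Tgfbr2 steps down from WT ATV:ISO (3.41 to 3.70) to WT ATV:4D9 (2.67 to 3.23) to the AppSAA groups (2.15 to 2.68), and Nrros/Tgfb1 is highest in both ATV:4D9 groups.

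Pools shifted the 10 genes too. Averaged over the 5 groups, the deviation from the group mean in pool 1 was -0.30 on the log2 scale for Tgfbr1, -0.26 for Tgfbr2, -0.26 for Smad7, -0.20 for Ski and -0.16 each for Smad3, Smad4 and Skil. Nrros (0.17) and Tgfb1 (0.12) were higher in that pool. Pools 3 and 4 had Tgfbr1 at 0.17 and Tgfbr2 at 0.15 each. Since each pool holds all groups, it does not set the group differences, but it widens the spread in the fit without the block.

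The cells had been grouped by the authors into 6 clusters at a resolution of 0.2, and the levels differed between clusters within the same mouse. Because the authors made the clusters from expression in the same cells, perhaps with these genes among those used, such differences are descriptions without a test. Clusters 0 and 3 together held most WT ATV:ISO cells. Cluster 1 was mostly of AppSAA mice (1160 to 2269 cells per mouse with ATV:ISO, 18 to 62 in WT ATV:ISO). Clusters 2 and 4 were mostly of ATV:4D9 mice, with 1339 to 2186 cells of cluster 2 per mouse in WT ATV:4D9 against 23 to 42 in WT ATV:ISO. Cluster 5 was largest in AppSAA ATV:4D9 (690 to 1071 cells). Sums of at least 20 cells were kept, and the smallest of them held 5 UMIs of Smad3 or Smad4 and 6 of Smad2, so single mice vary widely for those genes.

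Clusters 3 and 0 differed in Smad7 and Skil. Smad7 measured 348 to 580.3 CPM in cluster 3 (median 481, 20 mice) and 267 to 408 CPM in cluster 0 (median 303). The difference within a mouse, on log2(CPM + 1), had a median of 0.56 and was positive in 20 of 20 mice. Skil, the other inhibitor that TGF-beta raises in many cells, differed by a median of 0.52 and was also higher in 20 of 20. Ski, also an inhibitor, had a median of -0.11 and was lower in 18 of 20 mice. Nrros had a median of 0.25 and was higher in 18 of 20. Tgfbr1 was lower in cluster 3 in 20 of 20 mice, by a median of -0.27, and Tgfb1 was level at 0.00, with 10 mice higher and 10 lower. Of 8028 genes with a mean of at least 10 CPM, 2.89% were higher and 7.47% lower in every mouse, and their median difference was -0.10.

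Cluster 1 was low in nearly the whole set, beside clusters 0 and 3 summed. Over 16 mice the median difference was -0.997 for Smad3, -0.93 for Tgfbr1, -0.81 for Smad7, -0.75 for Nrros, -0.73 for Smad4, -0.71 for Skil and -0.68 for Ski, each lower in 16 of 16 mice. The median over genes of at least 10 CPM was itself -0.41, and 34.4% of them were lower in every mouse. Tgfb1, at -0.27, was lower in 16 of 16 but by less than that median. Tgfbr2 alone of the 10 was not lower, with a median of 0.05 and 11 mice higher and 5 lower. So Tgfbr1 measured a median of 467 CPM in cluster 1 and 1021 CPM in cluster 0, whereas Tgfbr2 measured 289 and 304 CPM. Cluster 3, which is part of the reference, is high in Smad7 and Skil, so their differences depend on it. In clusters 1 and 0 alone the medians were 219 and 303 CPM for Smad7 and 179 and 235 CPM for Skil.

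Smad7 in the clusters filled by ATV:4D9 depends on what it is set against. It was lower than in clusters 0 and 3 summed in 20 of 20 mice in cluster 2 (median -0.54), in 16 of 16 in cluster 4 (-0.92) and in 17 of 17 in cluster 5 (-0.48). Cluster 3 is the one with high Smad7, though. Over mice of all groups the median was 303 CPM in cluster 0, 290.4 and 284 CPM in clusters 2 and 5, and 212 CPM in cluster 4. These medians mix groups. In WT ATV:4D9 alone the mean was 322 ± 61.9 CPM (SD) in cluster 0. It was 280.2 ± 34.8 in cluster 2, 257 ± 30.4 in cluster 5 and 243 ± 33.9 in cluster 4. In AppSAA ATV:4D9 it was 298 ± 38.2 CPM in cluster 0 and 256 ± 50.6 in cluster 2. Tgfbr1 was lower than in clusters 0 and 3 in every mouse too, by -0.42, -0.64 and -0.54. The shares of genes lower in every mouse were 18.8%, 24.4% and 17.4%, and the medians over genes of at least 10 CPM were -0.09, -0.09 and -0.17. Smad2 was near 0 in clusters 2 (0.02) and 4 (0.08), where Smad3 was at -0.39 and -0.75, but it was lower in cluster 5 (-0.25, lower in 13 of 17 mice), where Smad3 was at -0.69. Nrros was at -0.12, -0.31 and -0.07. Between the clusters of ATV:4D9 mice, Smad7 was lower in cluster 4 than in cluster 2 in 16 of 16 mice (median -0.44, where 8.05% of genes were lower in every mouse).

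**Figure D4:**
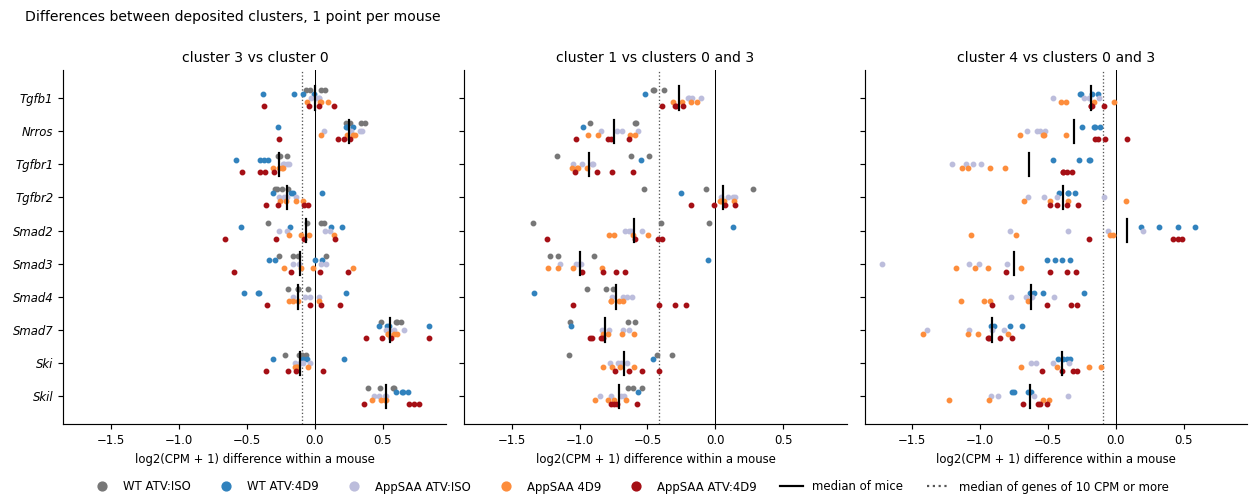
Difference in log2(CPM + 1) between clusters within a mouse (x axis) for each gene (y axis), with 1 point per mouse coloured by group, a bar at the median of mice and a dotted line at the median of genes of at least 10 CPM. Smad7 and Skil lie right of 0 in all 20 mice for cluster 3 against cluster 0, and Tgfbr2 straddles 0 for cluster 1 while Tgfbr1 lies near -0.93.

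Inside a cluster, few of the 10 genes were called. Their medians with ATV:4D9 lay below 0 in each cluster fitted but cluster 4. The median log2 fold change of the 10 genes in cluster 5 was -0.23 in AppSAA ATV:4D9 against ATV:ISO and -0.20 against 4D9. In cluster 2 it was -0.17 in WT ATV:4D9 against WT ATV:ISO, and in AppSAA ATV:4D9 -0.19 against ATV:ISO and -0.28 against 4D9. In AppSAA ATV:4D9 against ATV:ISO and then 4D9 it was -0.11 and -0.11 in cluster 0, -0.11 and -0.08 in cluster 1, and -0.10 and -0.11 in cluster 3, but 0.08 and 0.13 in cluster 4. A call missed in these smaller sums does not show that a gene did not change. None was called by edgeR in clusters 0, 1, 3 or 5, in any comparison that could be fitted, and 0 to 3 of them had an unadjusted p under 0.05. Over all genes up to 1.47%, 1.76%, 6.17% and 29.7% were called there. In cluster 0, where 1.47% of all genes were called for WT ATV:4D9 against WT ATV:ISO, 0 of the 10 had an unadjusted p under 0.05, and their median log2 fold change was -0.04. In cluster 3, where 6.17% were called, the same held, with a median of -0.05. Other tools were not run within clusters. With the pool as a block, cluster 0 still had none (at most 8.96% of all genes), and cluster 3 had 4 of the 10 in that comparison, where 17.5% of all genes were called. These were Tgfb1 (-0.18) and Tgfbr1 (-0.21) lower, and Tgfbr2 (0.18) and Skil (0.18) higher. For AppSAA ATV:4D9 against ATV:ISO the block gave 2 in cluster 3, Tgfbr1 and Ski lower, where 12.6% of all genes were called. Against 4D9 it gave Tgfbr1 alone (11.2%), and for AppSAA ATV:ISO against WT ATV:ISO Nrros alone (1.64%). In cluster 5 it gave 6, with Nrros higher and Tgfbr1, Tgfbr2, Smad4, Smad7 and Ski lower, where 37.2% were called. Against 4D9 it gave Nrros higher and Tgfb1 lower (23.1%), and for AppSAA ATV:4D9 against WT ATV:4D9 Nrros and Skil lower (15.8%).

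Inside cluster 2 Tgfb1 fell in all 3 comparisons with ATV:4D9 within a genotype, and Smad4 in 1 of them. Tgfb1 measured 407, 449, 434 and 366 CPM in WT ATV:ISO and 329, 323, 295 and 277 CPM in WT ATV:4D9, without overlap. The log2 fold change was -0.41 ± 0.109 (adjusted p = 0.024), where 5.88% of all genes were called. In AppSAA mice it measured 464, 378, 386 and 393 CPM with ATV:ISO, 375, 413, 377 and 351 CPM with 4D9, and 306, 295, 287 and 278 CPM with ATV:4D9. Here too every ATV:4D9 mouse was lowest, with changes of -0.43 ± 0.103 against ATV:ISO (adjusted p = 0.0065; 13.2% of all genes called) and -0.34 ± 0.103 against 4D9 (adjusted p = 0.030; 13.4%). Smad4 was also lower against 4D9 in this cluster (-0.46 ± 0.135, adjusted p = 0.023), with 49.8 to 50.8 CPM in 4D9 mice and 29.9 to 41.8 in ATV:4D9 mice. So 1, 1 and 2 of the 10 genes were called in the 3 comparisons, near the shares of all genes. What share of all genes did not overlap inside this cluster was not counted. In this cluster UMIs per cell of Tgfb1 were lower too, at 4.78 to 5.04 in WT ATV:4D9 against 5.23 to 5.96 in WT ATV:ISO, and at 4.69 to 5.50 in AppSAA ATV:4D9 against 5.81 to 6.65 in AppSAA ATV:ISO. The control sums are small, with 23 to 172 cells. Without pool 2, 3 or 4 the WT call was lost, without pool 3 none was called against ATV:ISO, and without pool 3 or 4 none against 4D9. With the block Tgfb1 stayed the only call in WT (11.0% of all genes called), 4 of the 10 were called against ATV:ISO (Tgfb1, Tgfbr2, Smad3 and Ski), where 24.8% of all genes were, and 5 against 4D9 (Tgfb1, Tgfbr2, Smad4, Smad7 and Ski), where 23.1% were. In cluster 1 the change of Tgfb1 was of like size (-0.34 against ATV:ISO and -0.30 against 4D9) and was called only with the block, where 7.77% and 6.73% of all genes were called.

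In cluster 4, 2 of the 10 genes were called in AppSAA ATV:4D9 against ATV:ISO, where 24.5% of all genes were, and 1 against 4D9, where 22.1% were, so neither share stood above that of all genes. Nrros, the tether, measured 93.8, 72.5, 68.9 and 74.9 CPM in AppSAA ATV:ISO and 118, 112, 104 and 96.3 CPM in AppSAA ATV:4D9, a rise of 0.51 ± 0.151 on the log2 scale (adjusted p = 0.016). Tgfbr1 measured 411, 404, 513 and 451 CPM against 449, 603, 667 and 697 CPM, a rise of 0.42 ± 0.130 (adjusted p = 0.021). Nrros did not overlap between these groups, and Tgfbr1 did, through ATV:4D9 replicate 1. The share of all genes that did not overlap in this cluster was not counted. Against 4D9 neither passed, with Nrros at 0.39 ± 0.151 (adjusted p = 0.068) and Tgfbr1 at 0.34 ± 0.130 (adjusted p = 0.061). There Smad2 rose by 0.54 ± 0.167 (adjusted p = 0.023), from 21.9 to 45.7 CPM to 48.7 to 63.0 CPM. The ATV:ISO and 4D9 sums held 26 to 74 cells each, and without pool 2 none of the 10 genes was called in either comparison; without pool 3 or 4, 1 was called against ATV:ISO, and without pool 1, 2 against 4D9. With the block Nrros, Tgfbr1 and Smad2 were higher and Ski lower in both, where 30.1% and 28.4% of all genes were called.

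**Figure D5:**
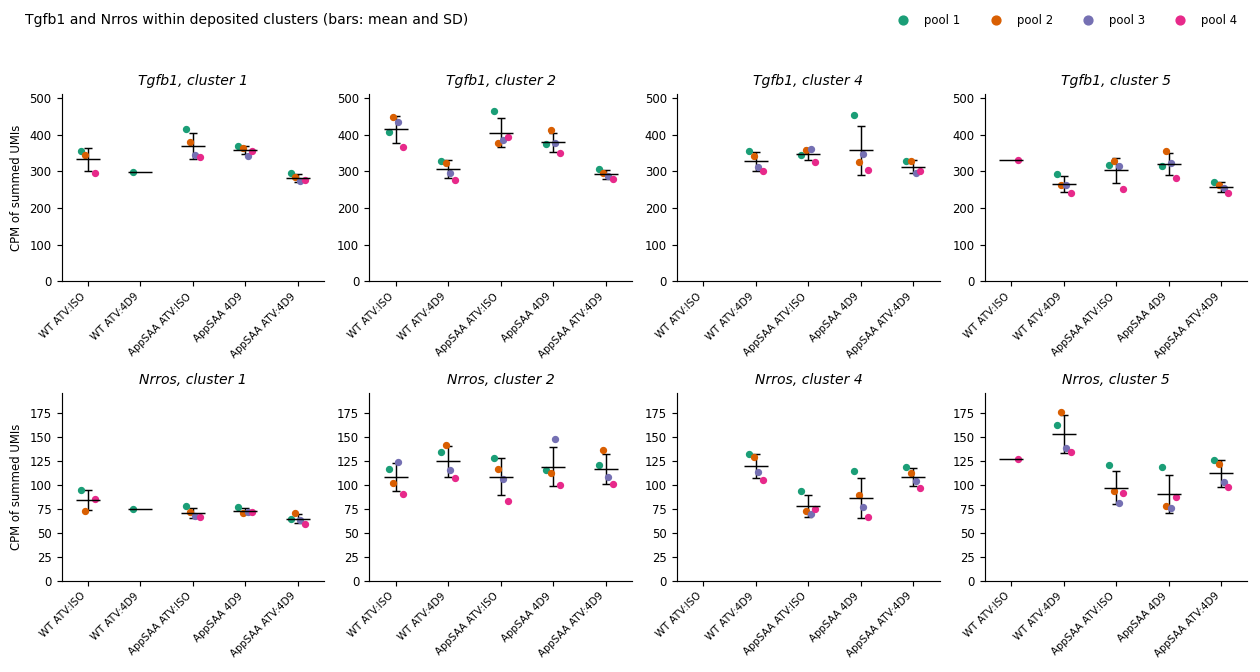
CPM (y axis, from 0) of Tgfb1 (top) and Nrros (bottom) in clusters 1, 2, 4 and 5 by group (x axis), with 1 point per mouse sum of at least 20 cells and bars for the mean and SD, the mean alone where a group has 1 sum. In cluster 2 Tgfb1 is lower in all ATV:4D9 mice (277 to 329 CPM) than in the others (351 to 464 CPM), and in cluster 4 Nrros is higher in AppSAA ATV:4D9 than in AppSAA ATV:ISO.

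Around the 10 genes, 6 lists of related genes were read from the same fits, and counts are of edgeR calls. Nothing said of a list here was tested for the list as a whole, and the counts are to be read beside the shares of all genes called. Those were 32.5% lower and 30.8% higher in WT ATV:4D9 against WT ATV:ISO, 13.7% and 14.4% in AppSAA against WT under ATV:ISO, and 27.1% and 27.9% in AppSAA ATV:4D9 against AppSAA ATV:ISO. For co-receptors and related receptors, 6 of 8 genes tested fell and 1 rose in WT ATV:4D9 against WT ATV:ISO, with a median log2 fold change of -0.68. Eng, a co-receptor of TGF-beta and BMP ligands, fell by 0.94, the activin receptor Acvr2b by 1.11 and Bmpr2, a BMP receptor, by 0.81. Endothelial cells also express Eng. The endothelial list, whose part was not tested, was 18.3 to 24.4 CPM in WT ATV:ISO and 9.49 to 12.9 in WT ATV:4D9. In AppSAA ATV:ISO against WT ATV:ISO 4 of 8 fell, with Eng at -0.62 and Acvr2b at -0.54. The endothelial list was higher in AppSAA ATV:ISO, at 37.5 to 52.2 CPM. In AppSAA ATV:4D9 against AppSAA ATV:ISO 4 fell and 1, Acvrl1, rose (0.50).

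Of the other SMADs, cofactors and regulators, 14 of 26 fell and 5 rose in WT ATV:4D9 (median -0.28). The coactivators Ep300 (-0.84) and Crebbp (-0.75) and Smad1 (-0.76), a SMAD of the BMP branch, were among those that fell. Strap, which holds Smad7 on the receptor, rose by 0.75. Under ATV:ISO, AppSAA against WT had 8 fall and 3 rise (median -0.11), and AppSAA ATV:4D9 against ATV:ISO had 12 fall and 4 rise (median -0.22). Bambi, a decoy receptor that is also on the list of SMAD-raised genes, was higher by 1.23 in AppSAA ATV:ISO, at 12.3 against 5.97 CPM, and fell by 0.90 with ATV:4D9. Of 8 genes of the non-SMAD arm, which runs through Tab2, Traf6 and Mapk14, 4 fell and none rose in WT ATV:4D9 (Tab2 -0.76), 2 fell in AppSAA against WT and 3 fell in AppSAA ATV:4D9 against ATV:ISO.

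Of 11 genes of the latent complex and its activation, 3 fell, a share near that of all genes, and 1 rose in WT ATV:4D9 (median 0.01), where integrin Itgb5 was at -0.46 and Itgb1 at 0.40. In AppSAA against WT 4 rose and none fell (median 0.34), and in AppSAA ATV:4D9 against ATV:ISO 2 rose and 4 fell. Genes that SMAD signalling raises in many cell types were split. In WT ATV:4D9 4 of 15 rose and 5 fell, with the cell cycle inhibitor Cdkn1a (1.86) among those that rose and the immediate early gene Jun (-0.76) among those that fell. In AppSAA against WT 5 rose and 1 fell, with Cdkn1a at 0.80, and in AppSAA ATV:4D9 against ATV:ISO 5 rose and 5 fell. Cdkn1a and Jun also answer to many other signals.

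Of 13 microglial genes that are lost without TGF-beta signalling, 10 fell and none rose in WT ATV:4D9 (median -0.69), 9 fell and none rose in AppSAA against WT (median -0.44), and 8 fell and none rose in AppSAA ATV:4D9 against ATV:ISO (median -0.31), where the medians over all genes were -0.05, -0.06 and -0.03. The remaining 3, 4 and 5 were not called. With the pool as a block 11, 11 and 9 fell, and 1, 0 and 2 rose. P2ry12, a purinergic receptor of resting microglia, fell by 1.38, 0.66 and 1.19 in these comparisons, and Sall1, a transcription factor of microglial identity, by 0.91, 0.48 and 0.59. None of the 6 lists had a gene called in AppSAA 4D9 against AppSAA ATV:ISO.

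By pattern over the 20 mice, the gene nearest to each of the 10 was set by the root mean square difference of centred log2(CPM + 1) among 8028 genes. Tgfb1 was nearest to Manbal (0.0553), Nrros to Cnpy3 (0.0687), Tgfbr1 to Mtr (0.0554) and Tgfbr2 to Snhg12 (0.0719). Smad2 was nearest to Zranb2 (0.0541), Smad3 to Zfand5 (0.0885), Smad4 to Dcaf8 (0.0580) and Smad7 to Baz2b (0.0528). Ski was nearest to Zmat1 (0.0685) and Skil to Arhgap30 (0.0613). No member of the 10 was the nearest gene of another, and the measure mixes group and pool differences, which the genes share through the mice.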

How the data were processed

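Single cells were measured with the 10x 3′ kit and CellPlex tags. Reads were aligned by the authors to mm10 (Cell Ranger 6.1.1), who clustered the cells with Seurat; their cell and gene filters are not given in the sources used here. They deposited 1 matrix of UMI counts without normalization and a table of cells with mouse and cluster, and no doublet caller was run here. The 3′ counts do not rank different genes by level. Counts were summed per mouse (4 in each of 5 groups) and per mouse and cluster (at least 20 cells, at least 3 mice per group). Genes were filtered with filterByExpr, scaled by TMM and tested with the quasi-likelihood test of edgeR 4.0.16 in R 4.3.3 in 1 fit over the 5 groups, with Benjamini-Hochberg adjustment at 0.05. limma 3.58.1 (voom), DESeq2 1.42.0, RLE size factors, no filter, removal of cells over 25000 UMIs, leaving out mice, the pool block and a minimum of 50 cells were alternatives. Tables and exact permutation tests used Python 3.11.15, pandas 2.3.3 and scipy 1.17.1. The scripts were tested on simulated data.

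The labels give each of 4 pools 1 mouse of every condition, so replicate numbers pair the mice: deviations from group means correlated at 0.227 to 0.709 in 40 pairs of the same number and -0.659 to 0.410 in 120 others. Depth was 17150296 to 102446549 UMIs per mouse. Mice are separate animals. The genes and lists were chosen with earlier results of these data known. Genes of the lists are named where called with a mean of at least 5 CPM, by size of change, and 1 such gene is not reported here. The ratio tests were chosen after the values were seen.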

Additional observations from a re-analysis of the deposited data

Results flagged for a closer look

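Among the 10 genes and 5 groups, 1 value stood apart within its group. For Tgfbr2 in WT ATV:4D9, replicate 1 was at 182 CPM and the other 3 mice at 235, 241 and 244 CPM, so its gap took 0.846 of the range of the group (Dixon's ratio). Chance flags about 1 in 20 groups. The same pool was lowest for Tgfbr2 in the other 4 groups too.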

How the results depend on the processing

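Among 642 refitted fold changes of genes called with or without the pool block, 564 kept direction and side of the threshold, 46 lost the call, 32 gained one and none reversed; where calls were lost the cause was not tested. The count of the 10 called in AppSAA ATV:ISO against WT ATV:ISO was 1 without a filter and 1 without cells over 25000 UMIs, and 1 to 2 with single mice left out. It was 3 to 8 for AppSAA ATV:4D9 against ATV:ISO (3 without AppSAA ATV:ISO replicate 3 or 4, or AppSAA ATV:4D9 replicate 1 or 2) and 3 to 5 against 4D9 (3 without AppSAA 4D9 replicate 3 or 4, or AppSAA ATV:4D9 replicate 1 or 2). Over all genes, AppSAA ATV:4D9 against WT ATV:4D9 gave 1103 to 1719 calls with mice left out, and DESeq2 called 1 gene for AppSAA 4D9 against ATV:ISO.

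With the pool as a block 9, 10, 10, 1 and 5 of the 10 genes were called in AppSAA ATV:ISO against WT ATV:ISO, AppSAA ATV:4D9 against ATV:ISO and against 4D9, AppSAA against WT under ATV:4D9, and the interaction; 7166, 4409 and 4284 genes were called in all in the first and the last 2. Within clusters, in AppSAA ATV:4D9 against ATV:ISO and then 4D9, it called 1 and 1 in cluster 1, 4 and 5 in cluster 2, 2 and 1 in cluster 3, 4 and 4 in cluster 4, and 6 and 2 in cluster 5. It also called 4 in cluster 3 for WT ATV:4D9, 1 in cluster 3 for AppSAA ATV:ISO against WT, and 2 in cluster 5 for AppSAA against WT under ATV:4D9. The block ended no call over all cells. With 50 cells per sum cluster 5 gave 1 against ATV:ISO. With pools left out the counts ran from 0 to 1 in cluster 2 (3 comparisons) and cluster 5 (3 comparisons), and from 0 to 2 in cluster 4 (both).

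In UMIs per cell in place of CPM the log2 ratios reversed to 0.50 for Tgfb1, 0.42 for Tgfbr1, 0.30 for Smad3, 0.30 for Smad4, 0.43 for Smad7, 0.50 for Ski and 0.56 for Skil in WT ATV:4D9 against WT ATV:ISO. They were 0.16 for Tgfb1, 0.15 for Tgfbr2, 0.14 for Smad4, 0.21 for Smad7 and 0.19 for Ski in AppSAA ATV:4D9 against ATV:ISO, and 0.14 for Tgfb1, 0.12 for Tgfbr2, 0.10 for Smad4 and 0.16 for Smad7 against 4D9. Depth limits the cluster sums, down to 5 UMIs of Smad3 and Smad4.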
